A study of Mus musculus with 12 samples.

Results

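The genes described here flank Nr3c1 on mouse chromosome 18, where the glucocorticoid receptor (GR) gene was edited in the cells compared. Probes whose start lay within 10 Mb of position 39787242 (build mm7, the start of the Nr3c1 probe) were taken from the arrays. Nr3c1 itself and some other genes, 5 in all, were left out by the rule. The window held 367 probes for 242 genes, and for 184 of these genes a probe passed the scanner's background call (well above background) on each of the 3 arrays in 1 group or more. These 184 are the flanking genes below, of 21016 genes tested in all. The 58 other genes of the window were too dim to enter the test. A further 324 genes of chromosome 18 outside the window served for comparison.

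The cells, fibroblasts grown out of E12.5 mouse embryos, were wild type (WT) or homozygous for the GR-C3 knockin. They were given vehicle or dexamethasone (Dex), a synthetic GR ligand, at 100 nM for 6 hours. In the knockin, exon 2 of Nr3c1 was replaced through gene targeting and cassette exchange in embryonic stem (ES) cells, so that the start codon of the GR-C3 isoform is kept and those of the other translational isoforms are mutated. A single positive ES cell clone founded the line, and the hygromycin cassette was removed with Flp-deleter mice. The line was kept on a C57Bl/6 background. The ES cell strain and the number of crosses are not given in the sources used here. Each of the 4 groups (WT vehicle, WT Dex, GR-C3 vehicle, GR-C3 Dex) held 3 arrays, described as biological replicates without word on whether they came from separate embryos. Every p-value is therefore a measure of the spread among these samples.

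The GR is a transcription factor that enters the nucleus on binding a glucocorticoid and then raises or lowers the transcription of its target genes. When a locus is edited in ES cells, the DNA around it is inherited with the edited allele, so that the neighbours of a targeted gene can carry the sequence of the ES cell strain as well. The interval around Nr3c1 holds the clustered protocadherins, 3 tandem arrays (Pcdha, Pcdhb and Pcdhg) of genes for cell adhesion proteins. Single cells choose which members of these arrays to transcribe, each from its own promoter, and the proteins are best known for giving neurons their surface identity.

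All levels are log2 processed signals minus that array's 75th percentile, so that 0 is the level of the percentile. The share of probes well above background ran from 70.7 to 78.4% over the 12 arrays. Differences were tested with limma and Benjamini-Hochberg adjustment over all 21016 genes, and an adjusted p under 0.05 was taken as passing. WT vehicle replicate 1 was unlike the rest of its group: across genes it correlated at 0.983 with the other WT vehicle arrays, which correlated at 0.998 with each other, and at 0.987 to 0.989 with the WT Dex arrays. It was alone on its slide, and it alone was scanned on a different day from the other arrays. Genotype differences are therefore given over 12 arrays and, where this matters, over the 11 without it. WT and GR-C3 cells also differed in ways not tied to chromosome 18. Ddx3y, a Y-linked gene, lay between 1.26 and 1.91 on WT arrays and between -8.93 and -6.46 on GR-C3 arrays, so that genotype and the sex of the embryos cannot be told apart. All 4 measured chondrocyte markers were lower in GR-C3 cells under both treatments, with a summed log2 level of 5.44 to 5.82 on WT arrays and 2.51 to 2.61 on GR-C3 arrays. The 3 measured endothelial markers of 6 summed to -0.75 to -0.35 on WT arrays and 0.94 to 1.36 on GR-C3 arrays. The 4 measured epithelial markers of 6 summed to -0.71 to -0.19 on WT arrays and 0.84 to 1.38 on GR-C3 arrays. Under vehicle Krt18 was higher by 2.30 and Krt8 by 0.44. Krt5 passed under neither treatment, and Krt14 stood at -0.021 under vehicle and was lower under Dex (-0.88, adjusted p = 0.00749). The 4 measured skeletal muscle markers of 5 summed to 5.22 to 5.72 and 5.94 to 6.29. Under vehicle Des was higher by 3.59 and Actc1 by 0.71, while Myod1 and Myog did not pass (adjusted p = 0.443 and 0.344). Under Dex Myod1 was higher too (0.71). Fibroblast markers were all measured, with 1 of 10 higher and 2 lower. The part of these markers in the differences below was not tested. In such bulk samples, fewer cells of a type and less RNA per cell cannot be told apart.

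The first question was whether the genes beside the edited locus differed between genotypes more often than genes elsewhere. The share that differed was a little above that of other genes, and the difference between these shares was not tested. Under vehicle 54 of 184 flanking genes passed (29.3%), against 24.7% of all genes tested and 25.6% of the other genes of chromosome 18. Of these 28 were higher and 26 lower in GR-C3 cells, where 14.5% of all genes were higher and 10.2% lower. Under Dex 65 passed (35.3%), against 29.6% of all genes and 29.6% of the rest of chromosome 18. Here 38 were higher and 27 lower, with 17.5% and 12.1% of all genes. When arrays were centred on their median in place of the 75th percentile, the split under Dex was 26 higher and 35 lower. The median log2 difference of the flanking genes was 0.08 under vehicle and 0.16 under Dex, and over all genes it was 0.11 and 0.13. Under both treatments with 1 sign, 45 flanking genes passed (24.5%, against 18.3% of all genes and 19.8% of the rest of the chromosome). Without WT vehicle replicate 1, 59 passed under vehicle (32.1%, against 27.3% of all genes), 80 under Dex (43.5%, against 40.6%) and 49 under both with 1 sign (26.6%, against 20.2%). With slide as a block, which takes WT vehicle replicate 1 out of every comparison, 19 passed under vehicle (10.3%, against 7.78% of all genes) and 35 under Dex (19%, against 15.4%).

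The direction of the differences varied along the window. Of the 9 genes within 1 Mb of Nr3c1, 2 passed under each treatment, both lower in GR-C3 cells. These were Arhgap26 and Kctd16 (nearer probe), and the latter met the background filter through WT arrays alone, which favours a lower GR-C3 level. Between 1 and 2.5 Mb, 17 of 42 genes passed under vehicle and 18 under Dex, of which 14 and 13 were lower. Of all genes 24.7% passed under vehicle and 29.6% under Dex, and 10.2% and 12.1% were lower. Between 2.5 and 5 Mb, 21 of 75 passed under vehicle and 22 under Dex, and 16 of these were higher each time. Between 5 and 7.5 Mb 11 and 18 of 44 passed, and between 7.5 and 10 Mb 3 and 5 of 14. The stretch from 1 to 2.5 Mb was thus the 1 stretch in which most of the genes that passed were lower under both treatments and over 10 genes were measured. It holds the protocadherin clusters. Without the Pcdhb genes, a division made after the values were seen, 41 of 167 flanking genes passed under vehicle (24.6%, against 24.7% of all genes) and 54 under Dex (32.3%, against 29.6%).

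**Figure D1:**
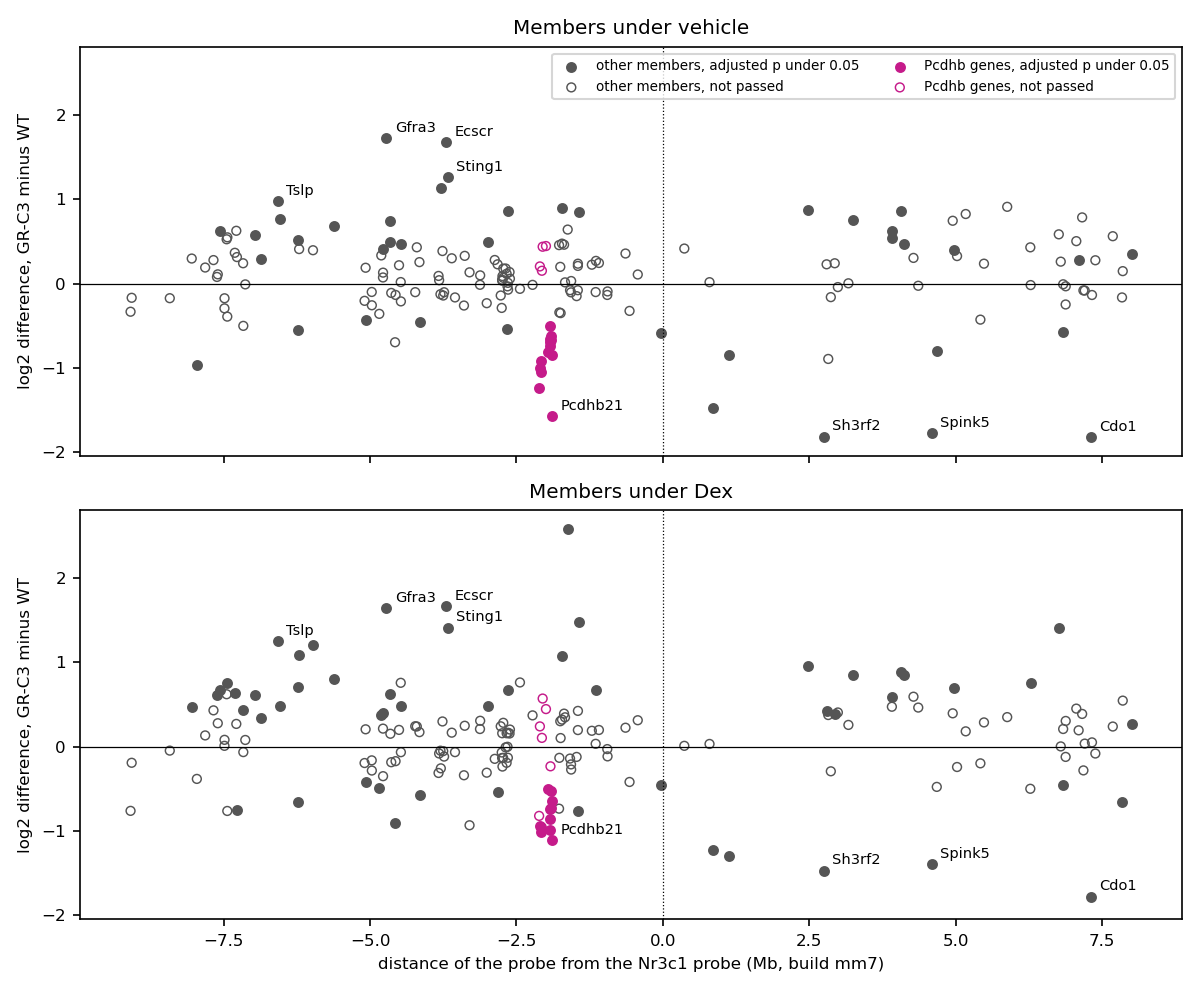
Log2 difference between GR-C3 and WT cells (vertical axis) of the 184 flanking genes against the distance of each probe from the Nr3c1 probe in Mb (horizontal axis, build mm7), under vehicle (top) and Dex (bottom). Filled points passed the test over all genes, and the Pcdhb genes, in magenta, form a column of mostly lower values near -2 Mb, with 13 of 17 lower under vehicle and 11 under Dex.

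Of the clustered protocadherins, 24 of 31 genes on the array were measured. Under vehicle 13 were lower in GR-C3 cells, 0 were higher and 11 did not pass. Under Dex 11 were lower, 0 were higher and 13 did not pass. For a lower level alone, 10.2% of all genes passed under vehicle and 12.1% under Dex. All the genes that passed belong to the Pcdhb cluster, of which 17 of 22 genes were measured, with probes between positions 37673509 and 37897275 of chromosome 18 (mm7, plus strand). The median log2 difference of these 17 genes was -0.69 under vehicle and -0.72 under Dex. Of the neighbouring clusters, 2 of 3 Pcdha genes and 5 of 6 Pcdhg genes were measured. By limma 0 of these 7 passed under either treatment, with 2 at an unadjusted p under 0.05 under vehicle and 3 under Dex. In either direction 24.7% of all genes passed under vehicle and 29.6% under Dex, and 7 genes are few for a contrast with Pcdhb. The median differences under vehicle and Dex were -0.039 and 0.57 for Pcdha and 0.014 and 0.32 for Pcdhg. Without WT vehicle replicate 1, Pcdhga4 was higher under vehicle (0.62, adjusted p = 0.0432) and Pcdhga9 under Dex (0.35, adjusted p = 0.0316).

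Pcdhb21 (probe at chromosome 18, 37892404 to 37892463) had the largest drop of the cluster under vehicle. WT vehicle arrays gave levels of -1.74, -2.15 and -1.93, against -3.37, -3.48 and -3.69 on the GR-C3 vehicle arrays. With Dex, WT arrays gave -2.13, -2.36 and -2.35 and GR-C3 arrays -3.37, -3.34 and -3.45. The groups did not overlap under either treatment. GR-C3 cells held 2.98-fold less signal under vehicle (log2 difference -1.57 ± 0.13 SE, adjusted p = 1.17e-05) and 2.15-fold less under Dex (-1.11 ± 0.13, adjusted p = 0.000144).

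Pcdhb6 (37712444 to 37712503) varied little between replicates. WT vehicle arrays gave -1.64, -1.75 and -1.69, and GR-C3 vehicle arrays -2.76, -2.78 and -2.69. Under Dex it lay at -1.64, -1.65 and -1.48 in WT and -2.70, -2.58 and -2.53 in GR-C3 cells. Every GR-C3 array lay below every WT array, with mean differences of -1.05 ± 0.09 (adjusted p = 2.04e-05) and -1.01 ± 0.09 (adjusted p = 2.55e-05). Its neighbour Pcdhb5 (37698978 to 37699037) differed by -0.91 ± 0.10 under vehicle and -0.95 ± 0.10 under Dex (adjusted p = 9.42e-05 and 7e-05). Pcdhb3 differed by -1.01 and -0.94 (adjusted p = 0.00156 and 0.00216), and Pcdhb15 by -0.69 and -0.99 (adjusted p = 0.00161 and 0.000146). In the fit with slide as a block Pcdhb5 and Pcdhb6 passed under both treatments, while Pcdhb3 and Pcdhb15 passed under Dex but not under vehicle (adjusted p = 0.0599 and 0.0794). Pcdhb14, Pcdhb16, Pcdhb17, Pcdhb19, Pcdhb20 and Pcdhb22 were also lower under both treatments, with differences of -0.85 to -0.62 under vehicle and -0.85 to -0.50 under Dex. For each of these genes alone, the result with slide as a block is not given here.

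The remaining members of the Pcdhb cluster did not share this pattern in full. Pcdhb2 was not well above background on any GR-C3 vehicle array and was at least 1.48-fold lower there (adjusted p = 0.0232, and 0.361 with slide as a block), with -0.82 under Dex (adjusted p = 0.0901). Pcdhb18 was lower under vehicle (-0.50, adjusted p = 0.0392) and stood at -0.23 under Dex (adjusted p = 0.279), and without WT vehicle replicate 1 it did not pass under vehicle either (adjusted p = 0.0561). Pcdhb4, Pcdhb7, Pcdhb8 and Pcdhb10 had positive differences of 0.15 to 0.44 under vehicle and 0.11 to 0.57 under Dex that did not pass. The genes with no drop lie between Pcdhb3 and Pcdhb14 on the chromosome, and Pcdhb5 and Pcdhb6, which were lower, lie among them. Without WT vehicle replicate 1, Pcdhb10 was higher in GR-C3 cells under vehicle (0.76, adjusted p = 0.00544) and under Dex (0.45, adjusted p = 0.0261). In that fit 12 and 11 genes of the cluster were lower. With slide as a block Pcdhb10 passed under neither treatment (adjusted p = 0.399 and 0.482).

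The arrays separated in most of these genes. All 3 GR-C3 arrays lay below all 3 WT arrays in 13 of 17 Pcdhb genes under vehicle, in 12 under Dex and in 12 under both, where 17, 18.3 and 11.6% of all genes did so. The proteins and transcripts of the cluster are alike, so that cross-hybridisation between members cannot be told apart from their own signal. Second probes for Pcdhb15, Pcdhb16 and Pcdhb17 gave differences of -0.99 to -0.56 under vehicle and -0.86 to -0.62 under Dex, the same sign as the first. A second, dimmer probe for Pcdhb19 gave -0.027 and 0.17. No slide held both genotypes under 1 treatment, so slide and genotype are partly confounded. On slide 3, which held GR-C3 vehicle and WT Dex arrays, 14 of 17 Pcdhb genes were lower in the GR-C3 arrays (median -0.73), against 49.8% of all genes. With slide as a block, 6 Pcdhb genes passed as lower under vehicle and 9 under Dex. The cluster has its best known role in neurons. Of the 6 neuron markers measured 2 were higher in GR-C3 cells under vehicle and 0 were lower, and whether such markers bear on the Pcdhb difference was not tested.

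**Figure D2:**
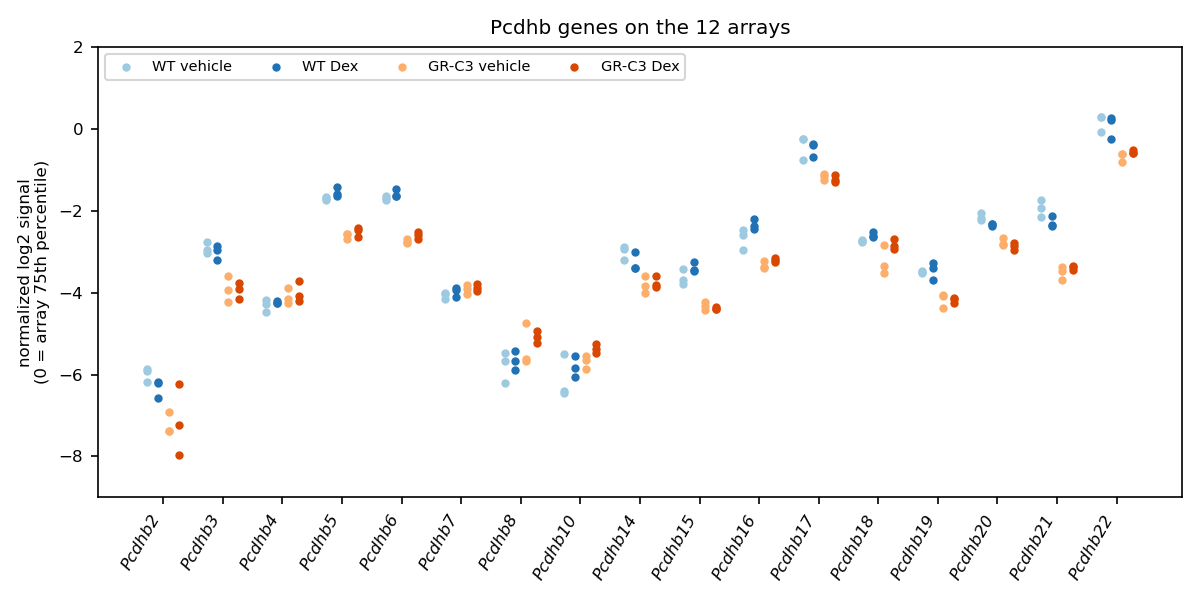
Normalized log2 signal (vertical axis, 0 is the 75th percentile of the array) of the 17 measured Pcdhb genes in chromosomal order on the 12 arrays, 1 point per array and 1 colour per group. In 12 of the 17 genes the GR-C3 points, in orange, lie fully below the WT points, in blue, of the same treatment under both treatments, while Pcdhb4, Pcdhb7, Pcdhb8 and Pcdhb10 overlap or lie the other way.

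Among genes for ligands, receptors and immune signalling, 5 of 8 were measured, and 3 were higher in GR-C3 cells under each treatment, where 14.5% of all genes were higher under vehicle and 17.5% under Dex. Gfra3 encodes the receptor for the neurotrophic factor artemin (probe at chromosome 18, 35065910 to 35065969, minus strand). Its level was -2.93, -2.60 and -2.86 in WT vehicle, -2.78, -2.21 and -2.45 in WT Dex, then -1.10, -1.002 and -1.10 with vehicle and -0.87, -0.86 and -0.77 with Dex on GR-C3 arrays. All 6 GR-C3 arrays lay above all 6 WT arrays. The difference was 3.31-fold under vehicle (1.73 ± 0.14, adjusted p = 1.27e-05) and 3.12-fold under Dex (1.64 ± 0.14, adjusted p = 1.76e-05). In the same samples, 3 of 5 Schwann cell and neural crest markers were higher in GR-C3 cells and 1 was lower, and their part in the Gfra3 difference was not tested.

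Sting1, the adaptor through which cells answer cytosolic DNA (36110139 to 36110198), lay at 0.66, 0.51 and 0.42 in WT vehicle. GR-C3 vehicle arrays gave 1.77, 1.88 and 1.71. Under Dex it lay at 0.11, 0.61 and 0.26 in WT and 1.71, 1.76 and 1.76 in GR-C3 cells. The genotypes did not overlap, with differences of 1.26 ± 0.13 (adjusted p = 5.69e-05) and 1.41 ± 0.13 (adjusted p = 2.33e-05). Tslp, a cytokine that acts on dendritic cells (33211434 to 33211493), was likewise higher, by 0.97 ± 0.16 under vehicle and 1.25 ± 0.16 under Dex (adjusted p = 0.00147 and 0.000271). The growth factor gene Fgf1 and the lipopolysaccharide co-receptor gene Cd14 did not pass over 12 arrays.

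Ecscr encodes a surface protein of endothelial cells (36089209 to 36089268, next to Sting1). Its level was -0.95, -0.996 and -1.003 with vehicle and -1.02, -0.78 and -1.33 with Dex on WT arrays. On GR-C3 arrays it was 0.66, 0.86 and 0.56 with vehicle and 0.64, 0.58 and 0.65 with Dex. The gap between genotypes was wider than the whole range within either. It came to 1.68 ± 0.14 under vehicle (adjusted p = 1.01e-05) and 1.67 ± 0.14 under Dex (adjusted p = 1.1e-05). Of the 3 measured endothelial markers, Emcn and Kdr were higher in GR-C3 cells as well, by 1.89 and 1.44 under vehicle, and Tek stood at -0.20 (adjusted p = 0.613). The part of endothelial cells in the Ecscr difference was not tested. The other 6 genes of the adhesion list did not pass under vehicle over 12 arrays, where 24.7% of all genes did. Under Dex Pcdh12, an endothelial protocadherin outside the clusters, was higher (0.68, adjusted p = 0.00536). Sema6a, a membrane-bound guidance cue, was lower by its first probe (-0.66, adjusted p = 0.0309, and 0.0741 with slide as a block), while its other probes gave 0.13 and 0.60.

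The largest fitted drops under vehicle were those of Cdo1, Sh3rf2 and Spink5, all on the other side of Nr3c1. Cdo1 encodes cysteine dioxygenase, which starts the breakdown of cysteine (probe at 47091254 to 47091313, minus strand). On WT arrays its level was 3.95, 3.22 and 3.28 with vehicle and 4.49, 4.38 and 4.44 with Dex. On GR-C3 arrays it was 1.67, 1.68 and 1.63 with vehicle and 2.48, 2.73 and 2.76 with Dex. The GR-C3 arrays lay below the WT arrays whatever the treatment. The difference was 3.54-fold under vehicle (-1.82 ± 0.17, adjusted p = 2.95e-05) and 3.43-fold under Dex (-1.78 ± 0.17, adjusted p = 3.36e-05).

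Sh3rf2, a scaffold protein with SH3 domains and a RING finger (42535261 to 42535320), lay at -4.44, -3.61 and -3.35 in WT vehicle. GR-C3 vehicle arrays gave -5.61, -5.48 and -5.76. Under Dex it lay at -3.85, -4.24 and -4.19 in WT and -5.51, -5.61 and -5.57 in GR-C3 cells. These groups did not overlap either, and the differences were -1.82 ± 0.23 (adjusted p = 0.000277) and -1.47 ± 0.23 (adjusted p = 0.00104). Spink5, an inhibitor of skin serine proteases, differed by -1.77 ± 0.24 and -1.39 ± 0.24 (adjusted p = 0.000426 and 0.00181). It was well above background on 2 of 3 GR-C3 vehicle and 1 of 3 GR-C3 Dex arrays. Spink5 thus met the background filter through WT arrays alone, which favours a lower level in GR-C3 cells. The fitted values are no measure of the size of its drop. Its relative Spink6 was lower under vehicle (-0.80, adjusted p = 0.00829) and stood at -0.48 under Dex (adjusted p = 0.0673), and with slide as a block it did not pass under vehicle (adjusted p = 0.388). Of the 4 other measured genes on the list of secreted inhibitors and blood proteins, Gypc, a red cell membrane glycophorin, was higher under both treatments (0.29 and 0.34, and with slide as a block adjusted p = 0.194 and 0.362), and Proc, the anticoagulant protein C, was lower under Dex (-0.75).

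Slide was set against these leading differences as well. With slide as a block, Gfra3 differed by 1.22 under vehicle and 1.54 under Dex, Ecscr by 1.80 and 1.88, Sting1 by 1.04 and 1.42 and Tslp by 0.98 and 1.34. Cdo1 differed by -1.499 and -1.71, Sh3rf2 by -1.70 and -1.13 and Pcdhb21 by -1.16 and -0.77, and all of these 7 genes still passed under both treatments. Spink5 did not (-1.51 and -1.10, adjusted p = 0.135 and 0.19). Of all 82 genotype differences followed for named genes, 36 no longer passed with slide as a block, 45 kept their call and 1 gained one. Losses are given beside the genes they touch where the genotype difference is described. For genes outside this set, such as Pcdhb14, Pcdhb16, Bin1, Cdc25c, Kif20a, Camk4 and Proc, single values with slide as a block are not given. On slide 3 alone, GR-C3 vehicle minus WT Dex was 1.27 for Gfra3, 1.81 for Ecscr, 1.39 for Sting1, -2.73 for Cdo1 and -1.33 for Sh3rf2, a comparison that also spans the treatments.

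**Figure D3:**
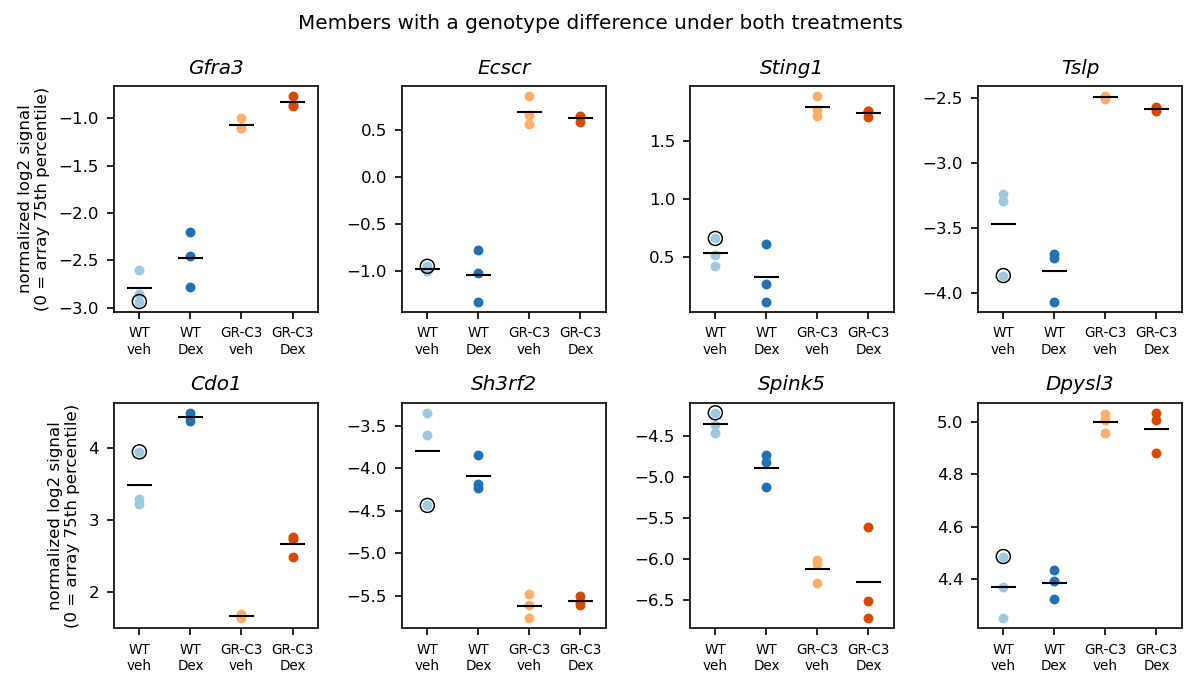
Normalized log2 signal (vertical axes, each with its own scale) of 8 flanking genes that passed under both treatments, 1 point per array, with a bar at the mean of each group and a ring around WT vehicle replicate 1. The upper 4 genes and Dpysl3 are higher and Cdo1, Sh3rf2 and Spink5 lower on all GR-C3 arrays of a treatment, and the ringed array lies with its genotype in each.

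Of the named genes nearest to the edited one, Arhgap26 and Kctd16 passed over 12 arrays. Arhgap26, a GTPase-activating protein (probe at 39752175 to 39752234), was the nearest. It was lower in GR-C3 cells by this probe, with -4.72, -4.95 and -4.97 on WT vehicle arrays and -5.63, -5.35 and -5.41 on GR-C3 vehicle arrays (-0.58 ± 0.15, adjusted p = 0.0183, and -0.46 under Dex, adjusted p = 0.0443). Its 2 other probes gave 0.86 and 0.032 under vehicle and -0.28 and 0.16 under Dex, so that the probes disagreed. Under the slide block the first probe gave -0.088 and -0.39, and neither passed (adjusted p = 0.876 and 0.276). On the same side, Fgf1 stood at -0.32 and -0.42 (adjusted p = 0.208 and 0.0938), and passed without WT vehicle replicate 1 at -0.56 and -0.42 (adjusted p = 0.00364 and 0.00638). With slide as a block it passed under neither treatment (adjusted p = 0.117 and 0.121). Its dimmer probe gave 0.00015 and 0.37, and the latter passed in the other direction. Ndfip1, an adaptor for ubiquitin ligases, stood at -0.14 and -0.028, and Rnf14, a ubiquitin ligase, at 0.24 and 0.20, and neither passed.

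On the other side of Nr3c1, Pabpc2, a poly(A) binding protein gene, and Yipf5, of the Golgi, did not pass, at 0.42 and 0.016 under vehicle. Next came Kctd16, an auxiliary subunit of GABA-B receptors, which the array carries under 2 names. The nearer probe (40633708 to 40633767) was lower under vehicle (adjusted p = 0.000691), where it was well above background on 1 of 3 GR-C3 arrays, so that the fitted difference of -1.47 is no measure of its size. No GR-C3 Dex array had it well above background, and it was at least 2.08-fold lower there (adjusted p = 0.00197). This probe met the background filter through WT arrays alone, which favours a lower level in GR-C3 cells. The farther one (40907243 to 40907302) lay at -4.56, -4.90 and -5.02 in WT vehicle. GR-C3 vehicle arrays gave -5.83, -5.42 and -5.77. It differed by -0.85 ± 0.14 and -1.29 ± 0.14 (adjusted p = 0.00154 and 8.73e-05; 0.116 under vehicle with slide as a block), and a dimmer probe at its side by -1.85 and -1.64. All 3 probes for Kctd16 thus had negative differences under both treatments.

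Genes of the cell cycle and cytoskeleton were all measured, and 8 of 17 were higher and 2 lower under vehicle, with 7 and 3 under Dex. Of all genes 14.5% were higher and 10.2% lower under vehicle, and 17.5% and 12.1% under Dex. Epb41l4a, a band 4.1 family protein (34172710 to 34172769), had vehicle levels of 0.84, 1.23 and 1.11 on WT arrays and 1.69, 1.72 and 1.83 on GR-C3 arrays, a difference of 0.69 ± 0.11 (adjusted p = 0.00111). Under Dex it was 0.81 (adjusted p = 0.000357). Blocking by slide left it passing under Dex alone (adjusted p = 0.0622 and 0.0128). Dpysl3, a collapsin response mediator, was higher by 0.63 and 0.59 (adjusted p = 0.000827 and 0.00115). The mitotic genes Cdc25c, a phosphatase, and Kif20a, a kinesin, were higher by 0.75 and 0.41 under vehicle and 0.63 and 0.40 under Dex, and Bin1, which bends membranes, by 0.58 and 0.61. Arap3, which acts on small GTPases of the Arf family, was higher by 0.85 and 1.48 by its brighter probe, but its other probe gave -0.10 and 0.11.

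Of 8 genes for RNA processing and decay, 3 passed under vehicle and 4 under Dex, all higher in GR-C3 cells, as were 14.5% and 17.5% of all genes. Wdr36, needed for ribosome assembly, was higher by 0.77 and 0.48 (adjusted p = 0.00107 and 0.0129), and Dcp2, which removes the mRNA cap, by 0.40 and 0.70 (adjusted p = 0.0179 and 0.000725). Both lost these calls with slide as a block (Wdr36 adjusted p = 0.131 and 0.181, Dcp2 0.129 and 0.0542). Wdr33, of the polyadenylation complex, was higher by 0.62 and 0.68, and the dimmest of its 3 other probes gave -0.23 and -0.069. Of 15 genes for transcription and chromatin, measured by 16 array entries, 0 passed under vehicle by limma, with 4 entries at an unadjusted p under 0.05, and 4 were higher and 1 lower under Dex. Nrep, on this list though described as a regulator of cell migration, had the largest value there (1.21, adjusted p = 0.018). Among all genes, 24.7% passed under vehicle and 29.6% under Dex, and 12.1% were lower under Dex. Of 8 genes for translation and tRNA charging, Lars alone passed over 12 arrays, under Dex. Of its 2 other probes 1 gave -0.040, and with slide as a block Lars did not pass (adjusted p = 0.175). Without WT vehicle replicate 1, Ankhd1 was lower under vehicle (-0.45, adjusted p = 0.00713).

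Of 11 genes for mitochondria and metabolism, 3 were higher and 1 lower under vehicle, where 14.5% of all genes were higher and 10.2% lower. Prelid2 was higher under both treatments (0.88 and 0.96, adjusted p = 0.00148 and 0.000793), as was the mitochondrial chaperone gene Hspa9 (0.47 and 0.48). When slide was a block Prelid2 stood at 0.44 and 0.67 (adjusted p = 0.266 and 0.0666), and Hspa9 did not pass either (adjusted p = 0.102 and 0.0599). Slc23a1, a vitamin C transporter, was higher under vehicle (1.14 ± 0.36, adjusted p = 0.0397) and stood at -0.26 under Dex, and this change of sign did not pass as an interaction (adjusted p = 0.715). Its vehicle difference with slide as a block was 0.46 (adjusted p = 0.662). Of 12 genes listed as secretory or endosomal, Reep5 and Sil1, both of the endoplasmic reticulum, were lower under both treatments. Pfdn1, a chaperone gene on that list though not of that pathway, was higher under both. Among all genes, 18.3% passed under both treatments with 1 sign. The differences of Reep5, Sil1 and Pfdn1 under vehicle were -0.44, -0.46 and 0.49. Among these, Pfdn1 under Dex alone still passed with slide as a block (adjusted p = 0.0419). Of 8 measured genes for kinases, phosphatases and the ubiquitin pathway, 2 were higher and 2 lower under vehicle, and 3 and 2 under Dex. The shares of all genes were 14.5% higher and 10.2% lower under vehicle, and 17.5% and 12.1% under Dex. Ppp2r2b, a regulatory subunit of protein phosphatase 2A, was higher (0.76 and 0.85), Camk4, a calcium-dependent kinase, lower (-0.55 and -0.65), and Trim36 higher under Dex (1.41, adjusted p = 0.00476). Given the slide block, Ppp2r2b passed under Dex alone and Trim36 did not pass (adjusted p = 0.103). The sterol carrier gene Stard4 was also higher under Dex (1.09, adjusted p = 0.000813), and so were its 2 other probes in value (0.92 and 1.04). The probe named Eif3s1 was higher under both treatments (0.86 and 0.89), but the reference symbol for that name, Eif3j1, lies on another chromosome, so that its identity is uncertain. It did not pass with slide as a block (adjusted p = 0.148 and 0.0508).

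Few flanking genes changed with Dex. Over 12 arrays limma called 0 of 184 in WT cells, with 29 at an unadjusted p under 0.05, where 0.124% of all genes were called. Without WT vehicle replicate 1, 15 changed, or 8.15%, against 12.3% of all genes and 15.1% of the rest of chromosome 18. Of these 4 rose and 11 fell, where 5.38% of all genes rose and 6.93% fell. Without WT Dex replicate 1 the count was 2. In GR-C3 cells 1 changed over 12 arrays (0.543%, against 0.105% of all genes), and 5 did without WT vehicle replicate 1 (2.72%, against 3.46% of all genes and 4.63% of the rest of the chromosome). The count was 0 without GR-C3 vehicle replicate 1, GR-C3 vehicle replicate 2 or GR-C3 Dex replicate 2, and 3 without GR-C3 Dex replicate 1. The 17 Pcdhb genes held 1 of these changes, that of Pcdhb10 in WT cells. The values that follow leave out WT vehicle replicate 1, whose level is given beside the others for Cdo1, Lims2, Kcnn2 and Ppp2r2b. It was left out for lying closer to the WT Dex arrays than to its own group. Leaving it out can thus favour calls for Dex in WT cells and for the interaction. Both genotypes' values are from the same fit, and each has its own vehicle arrays.

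Cdo1 rose with Dex in both genotypes. Its vehicle and Dex levels, given above, did not overlap in GR-C3 cells, nor in WT cells, where WT vehicle replicate 1 at 3.95 lay between the other vehicle arrays and the Dex arrays. WT cells gained 1.18 ± 0.10 (adjusted p = 6.36e-05) and GR-C3 cells 0.996 ± 0.09 (adjusted p = 0.000285). The difference between these rises was -0.19 (adjusted p = 0.561). Over all 12 arrays the values were 0.95 (adjusted p = 0.0635) and 0.996 (adjusted p = 0.0705). Within slide 2, with 1 Dex array, the WT rise was 1.24, and within slide 4, with 1 vehicle array, the GR-C3 rise was 1.02.

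Lims2, an adaptor at focal adhesions (probe at 32350639 to 32350698, plus strand), lay at 2.86 and 2.77 on 2 WT vehicle arrays, at 4.75 on WT vehicle replicate 1 and at 4.13, 4.57 and 4.24 in WT Dex. In GR-C3 cells it lay at 3.05, 3.09 and 3.06 with vehicle and 3.64, 3.54 and 3.47 with Dex. WT vehicle replicate 1 was thus higher than every Dex array, and all other vehicle arrays were lower than every Dex array of their genotype. Lims2 rose by 1.498 ± 0.13 in WT cells (adjusted p = 5.57e-05), and GR-C3 cells gained 0.48 ± 0.11 (adjusted p = 0.0492). The rise was smaller in GR-C3 cells, with an interaction of -1.02 ± 0.17 (adjusted p = 0.0227). Over 12 arrays these values were 0.85, 0.48 and -0.37, and none passed (adjusted p = 0.321, 0.666 and 0.944). Within slides the rises were 1.32 in WT and 0.49 in GR-C3 cells.

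Kcnn2, a calcium-activated potassium channel (46063126 to 46063185, plus strand), rose in GR-C3 cells. WT arrays gave -3.90, -4.17 and -4.12 with vehicle and -3.92, -3.82 and -3.88 with Dex. GR-C3 arrays gave -4.15, -4.12 and -3.97 with vehicle and -3.04, -3.07 and -3.25 with Dex, so that the GR-C3 Dex arrays lay above all others. It was the 1 flanking gene whose Dex change passed over 12 arrays, with a rise of 0.96 ± 0.11 in GR-C3 cells (adjusted p = 0.0128), and it passed without WT vehicle replicate 1 too (adjusted p = 0.00029). In WT cells the value was 0.19 over 12 arrays and 0.28 over 11 (adjusted p = 0.388 and 0.102). The interaction was 0.69 ± 0.13 over 11 arrays (adjusted p = 0.042) and 0.77 over 12 (adjusted p = 0.509). Over 12 arrays limma called 0 flanking genes for the interaction, with 14 at an unadjusted p under 0.05, where 0% of all genes were called. Over 11 arrays Lims2 and Kcnn2 were the 2 that passed (1.09%, against 1.14% of all genes).

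Of the genes that fell in WT cells, Arap3 and Ppp2r2b had the smallest adjusted p. Ppp2r2b (43023422 to 43023481) lay at -2.61 and -2.52 on 2 WT vehicle arrays, at -3.32 on WT vehicle replicate 1 and at -3.51, -3.66 and -3.51 in WT Dex. In GR-C3 cells it lay at -2.08, -2.16 and -1.94 with vehicle and -2.65, -2.64 and -2.83 with Dex. Its levels fell in both genotypes with no overlap (WT cells -0.998 ± 0.10, adjusted p = 0.000215; GR-C3 cells -0.65 ± 0.09, adjusted p = 0.0051), and the interaction did not pass (0.35, adjusted p = 0.294). A second probe gave -0.88 in WT and -0.43 in GR-C3 cells.

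Arap3 fell in WT cells (-0.96 ± 0.12, adjusted p = 0.000611, and -0.82, adjusted p = 0.0573, over 12 arrays) and stood at -0.19 in GR-C3 cells (adjusted p = 0.373), with an interaction of 0.78 that just missed (adjusted p = 0.054). Its other probe gave 0.17 in WT. Jakmip2, a microtubule-binding protein, fell in WT cells, as did Sh3rf2 and Tslp, with changes of -0.67, -0.61 and -0.56 (adjusted p = 0.00603, 0.0202 and 0.0101), with -0.16, 0.055 and -0.087 in GR-C3 cells. None of these interactions passed (adjusted p = 0.189, 0.143 and 0.19), so a difference between genotypes was not shown. Over 12 arrays the falls of Jakmip2, Sh3rf2 and Tslp in WT cells did not pass, and that of Tslp was -0.36. For Sh3rf2, WT vehicle replicate 1 lay below every WT Dex array. Lrrtm2, a synaptic adhesion protein, was well above background on 2 of 3 WT vehicle arrays and on no WT Dex array, and was at least 2.12-fold lower there (adjusted p = 0.0353). In GR-C3 Dex it was not well above background either, and the change in GR-C3 cells did not pass (adjusted p = 0.113). It met the filter through the GR-C3 vehicle arrays alone, which favours a fall in GR-C3 cells. Pcdhb10 rose in WT cells by 0.62 and Kctd16, by its farther probe, by 0.49 (adjusted p = 0.026 and 0.0328). Slc25a2, a mitochondrial ornithine carrier, fell in GR-C3 cells (-1.04 ± 0.24, adjusted p = 0.0486).

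**Figure D4:**
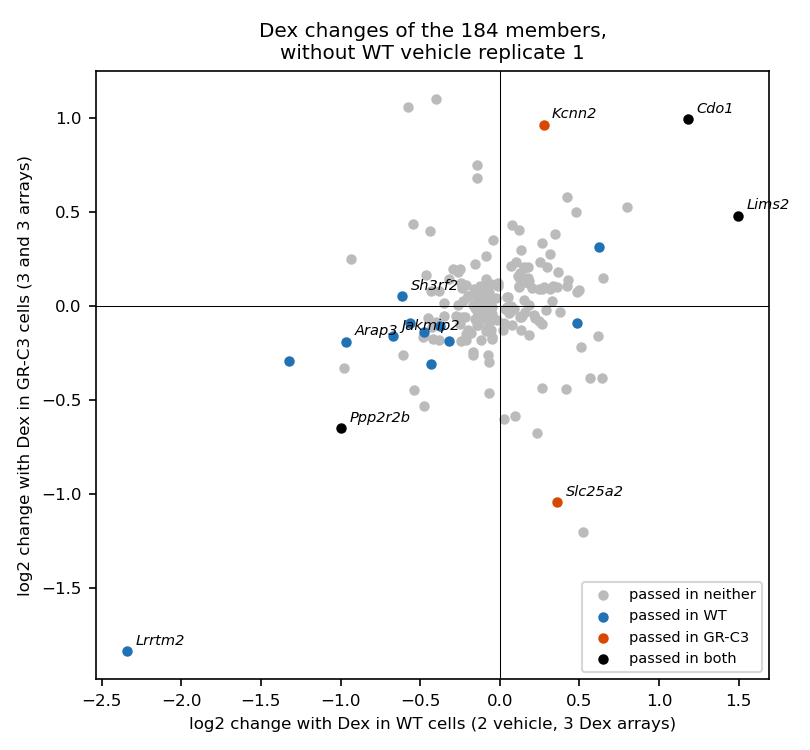
Log2 change with Dex in GR-C3 cells (vertical axis) against that in WT cells (horizontal axis) for the 184 flanking genes, from the fit without WT vehicle replicate 1. Most points lie near 0 on both axes, Cdo1, Lims2 and Ppp2r2b (black) passed in both genotypes, 12 genes passed in WT only (blue), and Kcnn2 and Slc25a2 passed in GR-C3 only (orange); passing in 1 genotype alone does not show that the genotypes differ.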

How the data were processed

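Cy3-labelled RNA of 12 samples was hybridised to 12 one-colour Agilent arrays. The deposited scanner files hold a linear intensity per spot from which the authors had subtracted background, made with Feature Extraction 9.5.3.1 per the file headers (9.5 per the submitters' processing notes). The deposited series matrix held the same intensity for all 45018 spots (tolerance 1e-09, column medians 77.9 to 154). Probe positions are those of build mm7 per the file headers. Exon, intron and UTR positions in that build were not analysed here.

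Levels are log2 of the intensity minus the 75th percentile of the array (884 to 1821). Control and outlier spots were removed, saturated ones were not, and repeat spots of a probe were averaged. A probe was kept where some group had it well above background on each array (30934 of 41174), and the probe with the highest mean stood for a gene name. Flanking genes were named through a RefSeq gene table by accession (116), symbol (25) or synonym (12), and 31 kept the file's name, so 184 entries hold 179 distinct symbols. The 5 comparisons used limma 3.58.1 (lmFit, eBayes; R 4.3.3) with a coefficient for each group, fitted over 12 arrays and over 11 without WT vehicle replicate 1. SE is the standard error of a log2 difference. A gene dim on all arrays of a group is given as "at least N-fold", against the higher of the lowest signal well above background and its own.

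Data of 20889 genes were simulated for genotype under vehicle, with 200 genes changed. Of genes changed by 0.5, 1, 1.5 and 2 log2 units, 16, 64, 82 and 98% were recovered, with 5 false calls. In the data 24.7% of genes passed in this comparison, far more than were changed here, so these rates do not describe recovery there. Permutation of 3 arrays against 3 cannot go below p = 0.1. The flanking genes, gene lists, tests and the naming rule were chosen with earlier results of these data known, and the split by protocadherin cluster was made after its values were seen. Named genes are those of the largest log2 differences that passed, up to 8 each way per genotype comparison and 6 per Dex comparison. They also include those with the smallest p under both treatments, the interaction calls, the 4 nearest on each side of Nr3c1 and up to 3 per gene list, with unnamed transcripts passed over. Genes named beyond the rule (such as Bin1, Kif20a, Cdc25c and Camk4) were chosen after their values were seen. Alternatives tried were quantile normalization, normexp, other filters and probes, slide and replicate blocks, and leaving out each array.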

Additional observations from a re-analysis of the deposited data

Results flagged for a closer look

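The Dex changes of 2 flanking genes differed between the genotypes by the interaction test, once WT vehicle replicate 1 was left out. The interaction, the GR-C3 change minus the WT change, was -1.02 for Lims2 (adjusted p = 0.0227 by limma) and 0.69 for Kcnn2 (adjusted p = 0.042). Lims2 rose more in WT cells and Kcnn2 more in GR-C3 cells. Neither passed over 12 arrays (adjusted p = 0.944 and 0.509). The array left out lay closer to the WT Dex arrays than to its own group, so leaving it out can favour such calls. The groups hold 3 arrays each, so outlying arrays within groups were not tested.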

How the results depend on the processing

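Flanking genes that passed numbered 54 under vehicle, 65 under Dex, 0 for Dex in WT, 1 for Dex in GR-C3 cells and 0 for the interaction, and Pcdhb genes that were lower 13 and 11. Leaving out each array in turn gave 39 to 59, 49 to 80, 0 to 15, 0 to 5 and 0 to 2, and 11 to 13 and 10 to 12 Pcdhb genes. The 15 came without WT vehicle replicate 1, and without WT Dex replicate 1 the count for Dex in WT was 2. For Dex in GR-C3 cells the count was 0 without GR-C3 vehicle replicate 1, GR-C3 vehicle replicate 2 or GR-C3 Dex replicate 2, 3 without GR-C3 Dex replicate 1 and 5 without WT vehicle replicate 1. No named value changed sign when 1 array was left out. With slide as a fixed block, in which WT vehicle replicate 1 drops out, 19, 35, 4 and 3 passed in the first 4 comparisons, and 6 Pcdhb genes under vehicle, and 36 of 82 named genotype values no longer passed. The shares of flanking genes were then 10.3% and 19% against 7.78% and 15.4% of all genes. With slide as a random block (correlation 0.52) 2 passed for Dex in each genotype. Same-numbered arrays did not deviate together (correlations of -0.21 to 0.21), and with the replicate number as a block 51 and 60 passed, with 3 of 82 named genotype values no longer passing. With only the groups compared 5 passed for Dex in GR-C3 cells, and with quantile normalization 2.

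The planned normexp correction let local backgrounds with an outlier call reach 65361 and moved the median of all genes to 0.29 and -0.41 in the genotype comparisons and 0.57 for Dex in WT. It left 3 flanking genes and 0 Pcdhb genes passing under each treatment and 0 for Dex in GR-C3 cells. Under it signs turned under vehicle for Spink5 (0.15), Kctd16 (0.44 and 0.44), Pcdhb2 (0.57), Pcdhb15 (0.10), Fgf1 (0.18), Arhgap26 (0.53) and Spink6 (0.24). Under Dex they turned for Tslp (-0.44), Arap3 (-0.38), Trim36 (-0.83), Nrep (-0.21), Pcdhb10 (-1.04), Ppp2r2b (-0.45), Jakmip2 (-0.60), Kcnn2 (-0.66), Pcdh12 (-0.96), Iws1 (-0.24) and Dcp2 (-0.083). For Dex in WT they turned for Tslp (1.53), Sh3rf2 (1.66), Arap3 (1.31), Lrrtm2 (2.16), Ppp2r2b (0.96) and Jakmip2 (1.33), in GR-C3 for Slc25a2 (0.20), and for the interactions of Lims2 (0.20) and Kcnn2 (-1.17). With local backgrounds repaired, 8 Pcdhb genes passed under vehicle and 0 flanking genes for Dex in GR-C3 cells, and Arhgap26 under vehicle (0.024) and Sh3rf2 for Dex in WT (0.041) turned. With the mean of all probes of a gene Arhgap26 under vehicle (0.10) and Sema6a under Dex (0.022) turned.

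Other probes turned the sign of Arap3 (-0.10 under vehicle, 0.16 for Dex in WT), Fgf1 (0.00015 and 0.37), Arhgap26 (0.86 and 0.032 under vehicle, 0.16 under Dex), Sema6a (0.13 and 0.60), Wdr33 (-0.23 and -0.069) and Lars (-0.040). Of 21 genes with several probes that passed under vehicle, 17 had all probes of 1 sign, and of 28 under Dex 22 did. Centring on the array median, an alternative chosen after seeing the data like the Pcdhb counts, moved the median of all genes under Dex from 0.13 to 0.02. The causes of these shifts were not tested. Signal over background limits Spink5, Lrrtm2, Pcdhb2 and Kctd16.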
